A study of Mus musculus with 12 samples.

Results

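Knockout of Pan2 was compared with wildtype in mouse spermatocytes at MII, the stage between the meiotic divisions, across all genes. The members were the 6 MII libraries of 12 in the series, 3 labelled wildtype (WT) and 3 labelled knockout (KO), chosen by the stage and genotype in their titles. The other 6 libraries were RS, the round spermatids that form after the second division, 3 per genotype. The KO genotype, Pan2flox/-;Stra8-Cre, carried a floxed and a null allele of Pan2 with a Cre recombinase under Stra8, which is active in germ cells from before meiosis, so somatic cells of the testis keep the floxed allele. Strain and age are not given in the labels used here, and the labels give the tissue only as sperm collected by FACS. Libraries were made from oligo(dT)-primed RNA with Smart-seq2, a full-length cDNA method with preamplification. The labels do not tie replicates to separate animals, and p-values here reflect the spread between libraries alone, which may be technical.

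PAN2 is the catalytic subunit of the PAN2-PAN3 complex, which shortens the poly(A) tails of mRNAs and works beside the CCR4-NOT complex. Tail length bears on how long an mRNA lasts and how well it is translated. Male germ cells rely on this control because transcription stops as the sperm nucleus condenses: mRNAs such as those of the protamines are made early, stored with long tails and translated later, when their tails are shortened. Protamines and transition proteins replace histones in the condensing nucleus. Counts of mRNA do not measure tail length, and an oligo(dT) primer needs a tail to bind.

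The WT MII libraries held 13781370, 21427227 and 34436668 counts and the KO MII libraries 24207417, 38652066 and 23056376. Levels are given as CPM, counts divided by a library size adjusted for composition, for replicates 1, 2 and 3 in this order, and differences are log2 fold changes of KO against WT with their SE. Because CPM is not divided by transcript length, levels are compared between genotypes and not between genes. A gene was called, and is said to have risen or fallen, at an adjusted p under 0.05 in edgeR's quasi-likelihood test over 21291 genes. Principal component 1 of the 6 libraries carried 35.22% of the variance, with WT between -55.2 and -33.5 and KO between 31.6 and 59.3. In the fit, 784 genes (3.68%) were called, 389 higher in KO (1.83%) and 395 lower (1.86%). At this size of group the count leaned on single libraries. It was 264 without WT MII replicate 3, 272 without KO MII replicate 1, 147 without KO MII replicate 2, 458 without KO MII replicate 3 and 469 without WT RS replicate 1. A fit that dropped the library labelled KO RS replicate 1 called 694, and a fit of the 6 MII libraries alone 403.

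The targeted gene was examined before the others. Pan2 (chr10:128303335-128321358, mm10) was at 12.9, 17.1 and 13.3 CPM in WT and at 5.57, 7.10 and 5.07 CPM in KO. Every KO library was below every WT library. In the fit of all libraries this difference, -1.28 on the log2 scale (SE 0.549), was not called (adjusted p = 0.227). In the library labelled KO RS replicate 1 the level was 22.6 CPM, the highest of the 12 and against its label. The MII difference was called once that library was left out (adjusted p = 0.00469), and also in a fit of the 6 MII libraries alone (adjusted p = 0.00741). Counts cover the whole gene, and the labels do not name the floxed exons, so they check the deletion only in part. Pan3, which binds the poly(A)-binding protein and recruits PAN2, was at 117, 111 and 70.6 CPM in WT and at 97.4, 94.6 and 110 CPM in KO, with a log2 fold change of 0.02 (SE 0.167, adjusted p = 0.973).

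Several marker sums moved with genotype, and the changes below are to be read beside them. Markers of Sertoli cells, the nurse cells of the tubule (24 listed, 23 tested), summed to 66.3, 77.6 and 90.1 CPM in WT and to 530, 277 and 154 CPM in KO, with positive log2 fold changes for 21. Amh was at 0 in all 6 libraries and Fshr at 0 in WT. All 15 markers of Leydig cells, which make testosterone, had positive log2 fold changes, and their sum was 128, 159 and 105 CPM in WT and 465, 288 and 300 CPM in KO. Round spermatid markers summed to 5290, 4834 and 5777 CPM in WT and to 6571, 6964 and 6248 CPM in KO. The mitochondrial share of counts was 0.374%, 0.357% and 0.210% in WT and 0.469%, 0.437% and 0.380% in KO. For these 4 quantities the groups did not overlap, with an exact two-sided permutation p of 0.1, the smallest that 3 against 3 libraries allow. Markers of the stages from diplotene to MII were present in all 6 libraries at 2383, 2882 and 2687 CPM in WT and at 1961, 2446 and 2472 CPM in KO, and these overlapped. Of the 16, 3 had a positive log2 fold change, with a median of -0.30. Sums of 3 lists do not set the stages apart. In the WT round spermatid libraries the diplotene to MII list summed to 2244, 1932 and 2743 CPM. Round spermatid markers summed there to 5972, 6846 and 5440 CPM and elongating spermatid markers to between 10880 and 15570 CPM. The WT ranges of both stages overlapped for all 3 lists. Markers from leptotene to pachytene did differ, with 1462, 1399 and 1891 CPM in WT MII and 1124, 1070 and 1258 CPM in WT round spermatid libraries. The Sertoli, Leydig and stromal cell sums were also higher in WT MII without overlap, while those of spermatogonia and leukocytes overlapped. The name MII is used as the label of the libraries. In such bulk libraries, fewer cells of a type and less RNA per cell cannot be told apart. With Sertoli and Leydig marker scores as covariates, 41 genes were called, all lower in KO, and 34 of them were among the 395 that fell. Since the sums of both lists separate the genotypes in MII, these covariates run with genotype. A call lost in that fit therefore cannot be assigned to the markers. What part these markers, the spermatid markers or the mitochondrial share have in other results was not tested.

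**Figure D1:**
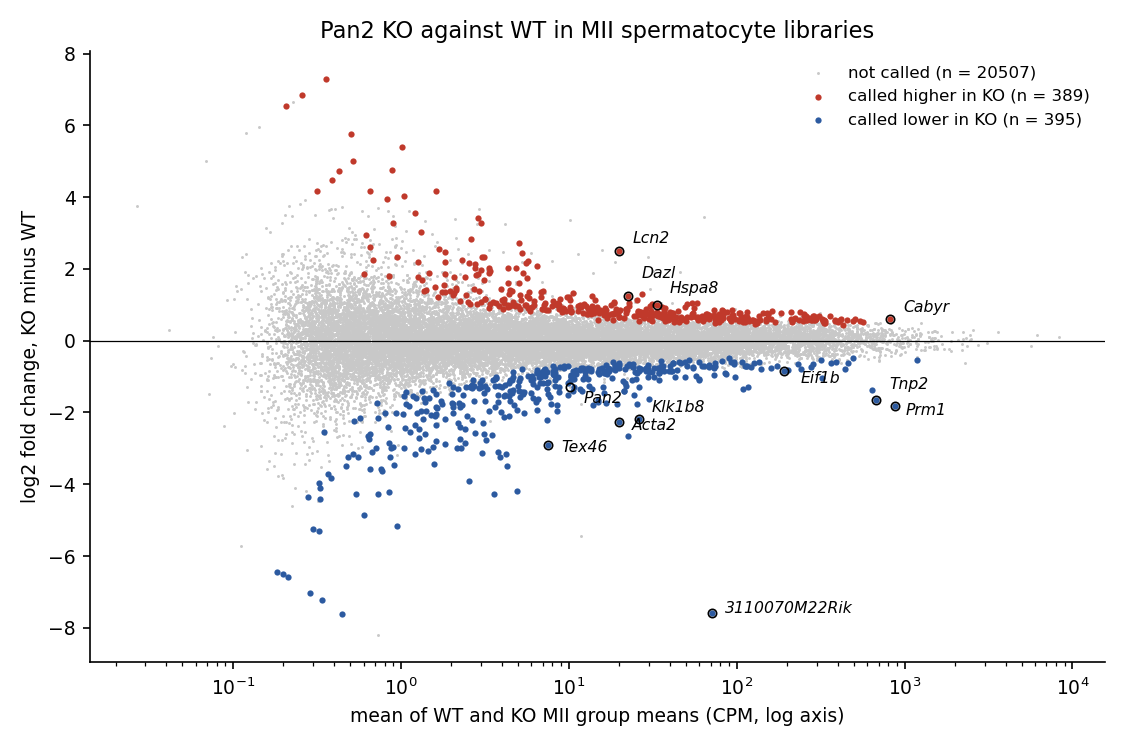
Each point is 1 of 21291 genes, with the mean of the WT and KO group means (CPM, log axis) against the log2 fold change of KO against WT. The 389 red genes were called higher and the 395 blue genes lower. 3110070M22Rik at -7.59 stands below genes of like level, and Prm1 and Tnp2 are abundant genes that fell.

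Called rises and falls differed in size and also in level. The 389 rises had a median log2 size of 0.818, and 263 of them were under 2-fold. The 395 falls had a median of 1.269, with 146 under 2-fold and 97 of 4-fold or more. The median of the mean levels was 22.08 CPM for the rises and 7.201 CPM for the falls. The mean was under 5 CPM for 94 of the 389 rises and 164 of the 395 falls. Whether rises and falls of like level differ in size was not tested. Together the genes that rose took 2.37%, 1.98% and 1.81% of CPM in WT and 3.28%, 3.27% and 2.94% in KO. The genes that fell took 1.78%, 1.72% and 2.25% in WT and 1.07%, 0.937% and 1.01% in KO. Of the 784, 776 had no overlap between the 3 KO and 3 WT libraries, against 22.2% of all genes tested.

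Genes of the protamine cluster were among the abundant genes that fell. Tnp2, Prm3, Prm2 and Prm1 lie next to each other on chromosome 16 and code for proteins of the condensing sperm nucleus, except Prm3, whose acidic protein is found in the cytoplasm of mouse spermatids. Tnp1 lies on chromosome 1. The 150 bases before the RefSeq start of each gene (GRCm38.p6, 5′ to 3′ on the gene's strand) are shown because members of 1 cluster differed in their response. Capitals mark the letters TGANNTCA (a CRE-like site, read on both strands), TATANA (TATA-like, on the gene's strand) or CCAAT (both strands).
Prm1, chr16:10796824-10796973, minus strand: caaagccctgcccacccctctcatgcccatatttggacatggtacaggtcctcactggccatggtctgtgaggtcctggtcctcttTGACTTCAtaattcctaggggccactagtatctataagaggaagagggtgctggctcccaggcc
Prm2, chr16:10792106-10792255, minus strand: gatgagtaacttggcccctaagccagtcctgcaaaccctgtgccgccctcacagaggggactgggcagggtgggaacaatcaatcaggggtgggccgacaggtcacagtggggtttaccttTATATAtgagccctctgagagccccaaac
Tnp2, chr16:10788656-10788805, minus strand: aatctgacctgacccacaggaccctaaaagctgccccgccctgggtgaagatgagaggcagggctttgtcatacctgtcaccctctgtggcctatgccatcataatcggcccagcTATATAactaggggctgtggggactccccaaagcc
Prm3, chr16:10790915-10791064, minus strand: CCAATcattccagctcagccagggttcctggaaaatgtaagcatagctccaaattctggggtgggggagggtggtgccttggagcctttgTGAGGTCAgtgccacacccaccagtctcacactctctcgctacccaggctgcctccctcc
Tnp1, chr1:73015900-73016049, minus strand: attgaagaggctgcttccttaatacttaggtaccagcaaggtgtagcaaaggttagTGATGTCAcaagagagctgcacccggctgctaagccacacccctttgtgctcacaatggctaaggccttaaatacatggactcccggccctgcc

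A match is a description of letters, not a binding site. The CRE-like letters are in the windows of Prm1, Prm3 and Tnp1 and not in those of Prm2 and Tnp2. Across the genes with a window, the letters TGANNTCA stood in 12.14% of those that rose (34 of 280), 12.14% of those that fell (34 of 280), 10.25% of all genes tested and 8.37% of all 32851 windows. TATANA stood in 10.36%, 9.29%, 7.08% and 9.66% of the same groups, and CCAAT in 33.21%, 26.79%, 29.82% and 24.5%. A gene counted when any of its windows held the letters, while the last share for each motif counts single windows. That last share is therefore not the same measure as the others.

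Prm1, the protamine made as a mature protein, was at 1304, 1118 and 1670 CPM in WT and at 567, 252 and 348 CPM in KO, log2 fold change -1.81 (SE 0.246, edgeR adjusted p = 0.0011). Prm2, whose protein is trimmed after it binds DNA, was at 838, 893 and 1026 CPM in WT and at 482, 255 and 335 CPM in KO, log2 fold change -1.36 (SE 0.202, adjusted p = 0.00131). Tnp2, a transition protein, was at 842, 851 and 1389 CPM in WT and at 432, 245 and 307 CPM in KO, log2 fold change -1.65 (SE 0.226, adjusted p = 0.000808). All 3 had every KO library below every WT library, with KO MII replicate 1 the highest of the KO group. They kept their call in each of the 12 fits that left out 1 library and with the marker covariates. Tnp1 was at 506, 329 and 463 CPM in WT and at 300, 147 and 190 CPM in KO, and fell by 1.03 on the log2 scale (SE 0.224, adjusted p = 0.0178). This call was lost without replicate 1 or 3 of WT MII, without replicate 2 or 3 of KO MII (highest adjusted p = 0.103) and with the covariates (adjusted p = 0.134). Prm3, between Tnp2 and Prm2, was at 332, 260 and 545 CPM in WT and at 434, 281 and 273 CPM in KO, so the groups overlapped (log2 fold change -0.20, SE 0.282, adjusted p = 0.749). Of the 21 tested genes listed for protamines, transition proteins and spermatid chromatin, these 4 fell and 0 rose, against 1.86% and 1.83% of all genes, and the median log2 fold change was -0.04. Beside that 0, 2 members were above WT at an unadjusted p under 0.05, DESeq2 called 1 higher and limma-voom called 0. Among 16 markers of elongating and condensing spermatids, 5 fell and 1 rose, against the same 1.86% and 1.83%. Prm1, Prm2, Tnp1 and Tnp2 are 4 of these 5. Most of the list went the other way, with a positive log2 fold change for 10 of the 16 and a median of 0.11. The sum of that list was 10070, 9019 and 11350 CPM in WT and 10500, 8117 and 8328 CPM in KO, which overlapped.

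The fall that stood farthest from the rest by its adjusted p was 3110070M22Rik (chr13:119487252-119488384, minus strand), annotated as protein-coding and with no function known from the files. It was at 126, 153 and 145 CPM in WT and at 0.976, 0.629 and 0.607 CPM in KO, log2 fold change -7.59 (SE 0.212, edgeR adjusted p = 8.28e-15). The groups did not come near each other in any library. With the covariates the change was -8.25, and over the 12 fits that left out 1 library it lay between -7.85 and -7.47.

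**Figure D2:**
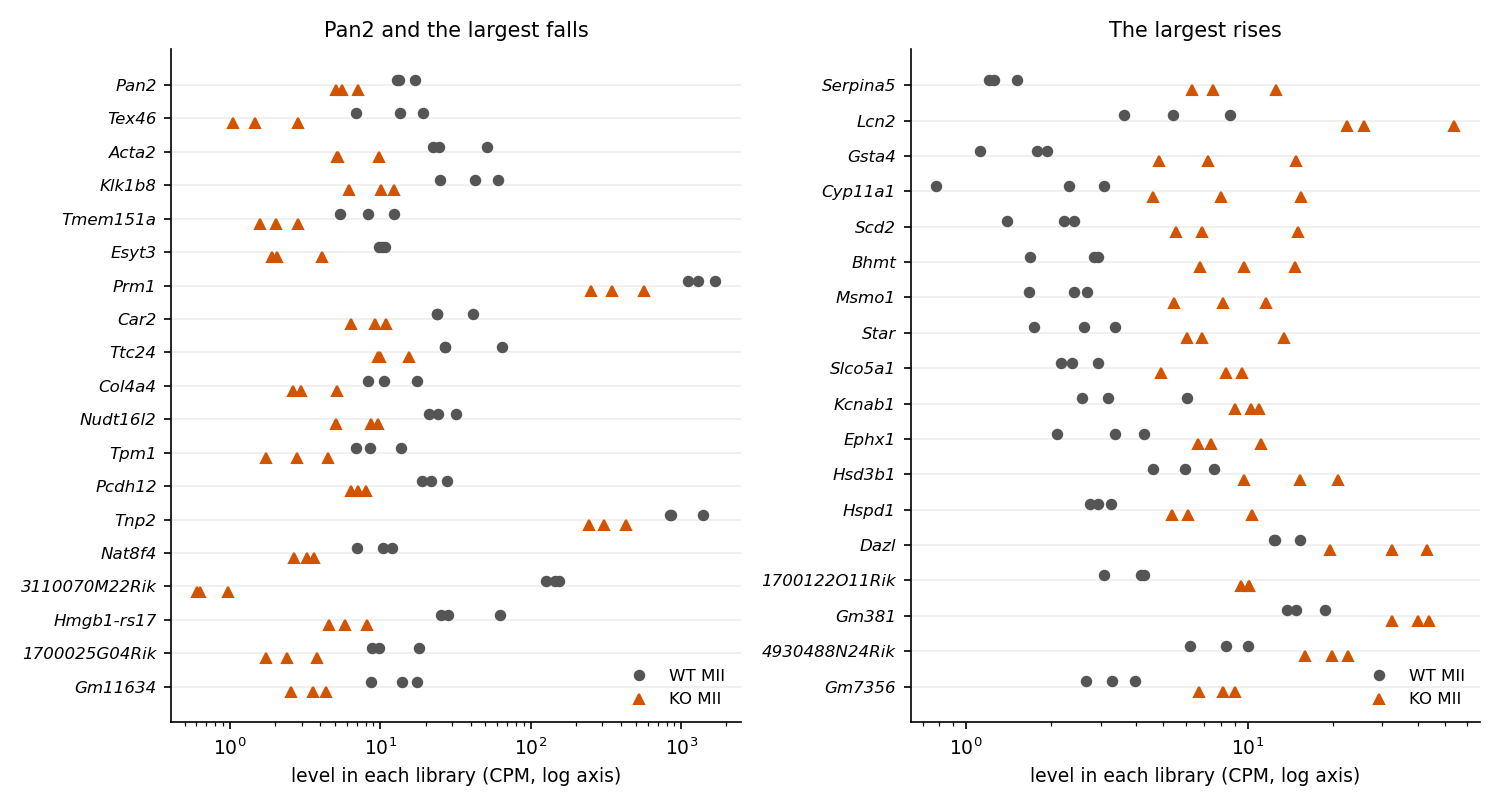
Levels (CPM, log axis) in each of the 3 WT (circles) and 3 KO (triangles) MII libraries for Pan2 and the largest falls on the left and the largest rises on the right, 14 genes and 4 clone or predicted symbols each way with a mean of at least 5 CPM. No overlap between the 2 groups was a condition for choosing these genes, and Pan2, named as the target, also had none. Pan2 did not pass the test, with KO between 5.07 and 7.10 CPM.

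Other large falls were of genes with different roles. Tex46, a testis-expressed gene, was at 13.5, 6.94 and 19.3 CPM in WT and at 2.85, 1.05 and 1.47 CPM in KO, log2 fold change -2.91 (SE 0.384, edgeR adjusted p = 0.000504). Esyt3, a tether between the endoplasmic reticulum and the cell membrane, was at 10.2, 9.84 and 10.7 CPM in WT and at 4.11, 2.07 and 1.91 CPM in KO, log2 fold change -1.93 (SE 0.335, adjusted p = 0.00345). The WT values of Esyt3 lay close together while those of Tex46 were spread from 6.94 to 19.3 CPM. Car2, a carbonic anhydrase, was at 23.9, 23.9 and 41.3 CPM in WT and at 10.9, 6.40 and 9.28 CPM in KO, log2 fold change -1.76 (SE 0.270, adjusted p = 0.00158). Pcdh12, a protocadherin of cell contacts, was at 21.7, 18.9 and 27.7 CPM in WT and at 6.42, 8.07 and 7.11 CPM in KO, log2 fold change -1.66 (SE 0.191, adjusted p = 0.000152). These 4 kept their call in each fit that left out 1 library. Tmem151a (-2.02) lost it without KO MII replicate 2 (adjusted p = 0.0527). Ttc24 (-1.75), Col4a4, a chain of basement membrane collagen (-1.75), Nudt16l2 (-1.73) and Nat8f4 (-1.63) fell and kept their calls in those fits. With the marker covariates Esyt3, Car2 and Tmem151a were still called, but not Tex46 (adjusted p = 0.0777), Pcdh12 (0.0663), Ttc24 (0.0621), Col4a4 (0.0708), Nudt16l2 (0.0621) or Nat8f4 (0.203). The log2 fold changes of these uncalled genes in that fit were -3.06, -1.56, -2.25, -2.32, -2.02 and -1.61 in the same order. Of 39 collagen genes tested, 4 fell and 0 rose, against 1.86% and 1.83% of all genes, with a median log2 fold change of -0.41. Beside that 0, 1 collagen gene was above WT at an unadjusted p under 0.05, and DESeq2 and limma-voom called 0.

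A cluster of kallikrein genes on chromosome 7, which code for secreted serine proteases, showed large differences in both directions. Of 9 genes of the list that passed the filter on low counts, 5 fell and 2 rose, against 1.86% and 1.83% of all genes. The other 9 of the 18 listed had too few counts. Some members passed this filter through the group in which they are high, so their number is given as a description. Klk1b8 was at 42.8, 25.1 and 60.2 CPM in WT and at 12.3, 6.19 and 10.1 CPM in KO, log2 fold change -2.18 (SE 0.296, edgeR adjusted p = 0.000695). Klk1b26 was at 7.68, 4.05 and 12.0 CPM in WT and at 1.06, 0.681 and 0.347 CPM in KO, log2 fold change -3.50 (SE 0.387, adjusted p = 9.7e-05). Klk1b9 fell by 3.24 (adjusted p = 0.00167) and Klk1 by 2.43 (adjusted p = 0.0184). Klk1 lost its call without WT MII replicate 3 and without each of the KO MII libraries (highest adjusted p = 0.0716), and Klk1b9 lost it with the marker covariates (adjusted p = 0.439). Klk1b5 fell from 0.699, 0.178 and 0.753 CPM to 0, 0.0524 and 0 CPM (adjusted p = 0.0362), a call lost in 6 of the 12 fits that left out 1 library (highest adjusted p = 0.126). Outside the list, the pseudogene Klk1b7-ps next to Klk1b8 was at 23.5, 14.2 and 33.3 CPM in WT and at 32.6, 19.6 and 21.7 CPM in KO. Its groups overlapped (log2 fold change 0.05, adjusted p = 0.941). The pseudogene Klk2-ps fell by 2.60 (adjusted p = 0.00224). The 2 rises in this cluster, which runs from Klk1b8 (chr7:43950664-43954941) to Klk1 (chr7:44225360-44229618), were at low levels. Klk1b21 went from at most 0.419 CPM in WT to 2.11, 1.83 and 0.867 CPM in KO (log2 fold change 3.27, SE 0.813, adjusted p = 0.0379). Klk1b24 went from 0, 0 and 0.0603 CPM to 0.976, 0.996 and 0.520 CPM (adjusted p = 0.0212), and neither rise was called once replicate 2 or 3 of WT MII or replicate 1 or 2 of KO MII was left out. These genes are near-identical copies, and the labels do not say how reads with several positions were counted, so levels of single copies are uncertain. The same holds for Hmgb1-rs17, a copy of the chromatin protein gene Hmgb1, at 28.4, 25.5 and 62.1 CPM in WT and 8.13, 5.82 and 4.60 CPM in KO (log2 fold change -2.65, SE 0.318, adjusted p = 0.000182).

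Some contractile genes of smooth muscle fell in MII. Acta2, smooth muscle actin, was at 51.3, 22.6 and 24.7 CPM in WT and at 9.88, 5.19 and 5.25 CPM in KO, log2 fold change -2.28 (SE 0.309, edgeR adjusted p = 0.000664). Myh11, smooth muscle myosin, was at 6.29, 2.98 and 5.06 CPM in WT and at 0.244, 0.131 and 0.607 CPM in KO, log2 fold change -3.92 (SE 0.519, adjusted p = 0.000504). Both had a spread among WT libraries, replicate 1 highest, and no overlap with KO. The tropomyosin genes Tpm2 (log2 fold change -3.11, adjusted p = 0.00642) and Tpm1 (-1.71, adjusted p = 0.0224) also fell, Tpm2 not without KO MII replicate 2 (adjusted p = 0.0589) and Tpm1 not when replicate 1 or 3 of WT MII or replicate 2 or 3 of KO MII was left out (highest adjusted p = 0.118). With the marker covariates Acta2 was still called (-2.93, edgeR adjusted p = 0.02). Myh11 (-3.74, adjusted p = 0.208), Tpm2 (-3.46, 0.392) and Tpm1 (-2.80, 0.105) were not. Of 20 tested contractile genes 4 fell and 0 rose, against 1.86% and 1.83% of all genes, and 3 had a positive log2 fold change. Beside that 0, 0 members were above WT at an unadjusted p under 0.05, and DESeq2 and limma-voom called 0. The muscle and enteric actin gene Actg2, at 159, 117 and 146 CPM in WT and 146, 128 and 131 CPM in KO, overlapped (adjusted p = 0.905). The sum over 16 tested markers of peritubular myoid, endothelial and stromal cells was 169, 97.6 and 120 CPM in WT and 119, 54.1 and 74.1 CPM in KO, and overlapped, although Acta2 and Myh11 are on that list.

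The 14 largest rises by fold, chosen with mean levels of 5 CPM or more and no overlap between groups, included genes on the lists for steroid and sterol synthesis. Serpina5, a serine protease inhibitor, was at 1.26, 1.51 and 1.21 CPM in WT and at 12.6, 7.5 and 6.33 CPM in KO, log2 fold change 2.73 (SE 0.505, edgeR adjusted p = 0.0078). Lcn2, a lipocalin that binds iron carriers, was at 3.63, 8.63 and 5.43 CPM in WT and at 53.8, 25.8 and 22.5 CPM in KO, log2 fold change 2.51 (SE 0.491, adjusted p = 0.0174). In both genes KO MII replicate 1 was the highest library, as it was for the Sertoli and Leydig sums. Both calls were lost without WT MII replicate 3 (adjusted p = 0.0579 and 0.0682). Cyp11a1, which starts steroid synthesis from cholesterol, was at 3.07, 2.31 and 0.784 CPM in WT and at 15.4, 7.99 and 4.60 CPM in KO, log2 fold change 2.23 (SE 0.573, adjusted p = 0.0403). Star, which carries cholesterol into mitochondria, and Hsd3b1, a step later in the pathway, rose by 1.74 (adjusted p = 0.0244) and 1.32 (adjusted p = 0.0278) on the log2 scale. These 3 are all of the 14 tested steroidogenesis genes that were called, against 3.68% of all genes, and all 3 are also on the list of Leydig cell markers. Cyp11a1 lost its call in 8 of the 12 fits that left out a library (highest adjusted p = 0.182) and Star and Hsd3b1 in 4 each (0.146 and 0.155). With the marker covariates the log2 fold changes were -0.19 for Lcn2, -1.32 for Cyp11a1, 0.26 for Star, 0.24 for Hsd3b1 and 0.76 for Serpina5, none called. The Leydig score is made in part from Cyp11a1, Star and Hsd3b1 themselves, so this fit cannot judge their rises.

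Of the sterol genes, 2 of 27 rose and 0 fell, against 1.83% and 1.86% of all genes, and the median log2 fold change was 0.16. Beside that 0, 1 member was below WT at an unadjusted p under 0.05, DESeq2 called 1 lower and limma-voom 0. Msmo1, a demethylase of cholesterol synthesis, was at 1.68, 2.40 and 2.68 CPM in WT and at 11.6, 8.18 and 5.47 CPM in KO, log2 fold change 1.87 (SE 0.289, edgeR adjusted p = 0.00158). It kept its call in each fit without 1 library but not with the covariates (1.40, adjusted p = 0.511). Ebp, a sterol isomerase gene on the X chromosome, rose by 2.18 (SE 0.574, adjusted p = 0.0401) from at most 0.904 CPM, and lost its call in 6 of those fits (highest adjusted p = 0.245). Sqle, an epoxidase of the pathway, was at 150, 138 and 117 CPM in WT and 145, 156 and 173 CPM in KO. The groups overlapped, and Sqle was not called (adjusted p = 0.38).

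Other large rises were of several kinds. Dazl, which binds mRNAs of germ cells and promotes their translation, was at 12.4, 12.5 and 15.3 CPM in WT and at 43.2, 32.6 and 19.6 CPM in KO, log2 fold change 1.24 (SE 0.224, edgeR adjusted p = 0.00483). It kept its call in each fit without 1 library, and with the covariates the change was 0.58 (adjusted p = 0.768). Slco5a1, an organic anion transporter family gene, was at 2.38, 2.94 and 2.17 CPM in WT and at 9.51, 8.34 and 4.90 CPM in KO, log2 fold change 1.61 (SE 0.271, adjusted p = 0.00281), and kept its call likewise. Kcnab1, a potassium channel subunit, rose by 1.38 (adjusted p = 0.0112), but not when replicate 3 of WT MII (0.0635) or replicate 2 of KO MII (0.0534) was left out. Hspd1, the mitochondrial chaperonin, rose by 1.28 (adjusted p = 0.0169), but not without KO MII replicate 1 (0.105). Gsta4, a glutathione transferase, rose by 2.44 (adjusted p = 0.0354), Scd2, a fatty acid desaturase, by 2.15 (0.0232), Bhmt, a methyltransferase of homocysteine, by 2.08 (0.0188), and Ephx1, an epoxide hydrolase, by 1.35 (0.0476). These 4 lost their calls in 8, 5, 3 and 7 of the fits without 1 library, with a highest adjusted p of 0.118, 0.118, 0.107 and 0.215. Among chaperones of the stress list, Hspa8 rose by 0.99 (adjusted p = 0.00805; 0.0563 without KO MII replicate 1) and Hsph1 fell by 0.70 (adjusted p = 0.0331), and the median of the 32 tested was 0.04. Hsph1 was not called in 5 of the fits without 1 library (highest adjusted p = 0.135) or with the 6 MII libraries alone (0.0675).

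Most abundant genes that changed did so by less than 2-fold. Cabyr, a calcium-binding protein of the fibrous sheath of the sperm tail, was at 754, 530 and 683 CPM in WT and at 1060, 1044 and 867 CPM in KO, log2 fold change 0.59 (SE 0.157, edgeR adjusted p = 0.0403). Rbakdn, annotated as a long noncoding RNA, was at 1130, 1333 and 1737 CPM in WT and at 949, 958 and 996 CPM in KO, log2 fold change -0.53 (SE 0.139, adjusted p = 0.0381). Groups were close together, and these calls were lost with the 6 MII libraries alone (adjusted p = 0.0875 and 0.0933). They were also lost in 7 (highest adjusted p = 0.168) and 6 (0.132) of the 12 fits that left out 1 library. Eif1b, a translation initiation factor, was at 226, 253 and 258 CPM in WT and at 139, 136 and 138 CPM in KO, log2 fold change -0.84 (SE 0.154, adjusted p = 0.00586), and kept its call in all 12. It was the 1 gene of 50 tested initiation and elongation factors to be called, a share of 2% against 3.68% of all genes. Rpl39l, a testis ribosomal protein (-0.48), Srp14 of the signal recognition particle (-0.77) and Ndufc1 of respiratory complex I (-0.60) fell too, and lost their calls in 7, 4 and 7 of those fits (highest adjusted p = 0.133, 0.104 and 0.167). Rpl39l and Ndufc1 were also not called with the 6 MII libraries alone (adjusted p = 0.0862 and 0.0934), while Srp14 was (0.0472).

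A few genes of the sperm head and tail rose, by less than 2-fold. Of 20 ADAM protease genes of the testis 19 had a positive log2 fold change and 2 rose, with a median of 0.34. Of 50 acrosome genes, 36 had a positive log2 fold change and 3 rose, with a median of 0.20, and the sum of round spermatid markers given above was higher in KO too. The share called, 10% and 6%, stands against 3.68% of all genes. Spam1, a hyaluronidase of the sperm surface, was at 174, 113 and 170 CPM in WT and at 256, 327 and 220 CPM in KO, log2 fold change 0.81 (SE 0.179, edgeR adjusted p = 0.0188). The rise of Spam1 was not called without KO MII replicate 1 or 2 (highest adjusted p = 0.114). Zp3r (0.61, adjusted p = 0.0263) and Dcst1 (0.66, adjusted p = 0.0378) were the other acrosome rises, and Adam26a (0.70, adjusted p = 0.0232) and Adam24 (0.62, adjusted p = 0.0362) the ADAM rises. These 4 were lost in 4 to 7 of the fits without 1 library, WT MII replicate 3 and KO MII replicates 1 and 2 among them (highest adjusted p = 0.155). They were also not called in a fit of the 6 MII libraries alone (adjusted p from 0.0515 to 0.09). In the list of sheath and dense fibre genes Cabyr and Odf3 (0.58, adjusted p = 0.0443) rose and Odf3b (-1.29, adjusted p = 0.0265) fell, 3 of 20. Odf3 lost its call in 10 of the fits without 1 library (highest adjusted p = 0.145) and with total count scaling, and Odf3b in 3 (0.132). Cabyr, Odf3 and Odf3b were not called with the 6 MII libraries alone (adjusted p = 0.0875, 0.0678 and 0.0722). Tssk6, a serine kinase of late spermatids, fell by 1.06 (adjusted p = 0.00842), the 1 call among 8 such kinases, and was not called without KO MII replicate 2 (0.07).

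Few genes of tail shortening and of the meiotic division were called, which does not show that the others were unchanged. Of 26 genes of the PAN2-PAN3 and CCR4-NOT deadenylases, Pan2 included, edgeR called 0, with a median log2 fold change of 0.06. At an unadjusted p under 0.05, 1 was higher and 2 lower, and DESeq2 and limma-voom called 0. Of 27 genes for poly(A) binding and tail extension 1 was called, Tent5d, an X-linked noncanonical poly(A) polymerase family gene. Tent5d was at 72.2, 43.7 and 41.5 CPM in WT and at 81.5, 114 and 89.3 CPM in KO, log2 fold change 0.86 (SE 0.186, adjusted p = 0.0167), and was not called once replicate 3 of WT MII or replicate 2 of KO MII was dropped (highest adjusted p = 0.103). With the 6 MII libraries alone Tent5d was not called either (adjusted p = 0.0588). Of 22 genes for decapping and 5′ to 3′ decay 1 fell, Lsm3 of the LSM ring (-1.08, adjusted p = 0.0311), which was lost in 4 fits without 1 library (highest adjusted p = 0.167). Of 53 genes of the meiotic division and spindle checkpoint 1 fell, Bub3, a checkpoint protein, at 69.8, 86.9 and 94.8 CPM in WT and 49.6, 52.6 and 54.9 CPM in KO (log2 fold change -0.68, SE 0.162, adjusted p = 0.026), also lost in 4 (0.102). Shares of 3.70%, 4.55% and 1.89% are near the 3.68% of all genes. At an unadjusted p under 0.05, these lists had 5, 3 and 1 genes higher and 1, 5 and 9 lower, in the same order. Among 36 genes of synapsis and recombination and 14 of the anaphase-promoting complex edgeR called 0. At an unadjusted p under 0.05, 8 of the first were higher and 1 lower, and 2 of the second higher and 4 lower, while DESeq2 called 2 and 0 and limma-voom called 0.

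Most genes on the X chromosome had higher levels in KO. In male germ cells the X and Y are silenced during the first meiotic prophase, and part of their genes are active again in spermatids. Of 790 X-linked genes tested, 87 rose (11%, against 1.83% of all genes and 1.47% of 20205 autosomal genes) and 0 fell in the edgeR fit. Beside that 0, 14 were lower at an unadjusted p under 0.05, DESeq2 called 2 lower and limma-voom 0. The log2 fold change was above 0 for 640 (81.01%), with a median of 0.48, while the autosomal median was -0.02. The share of CPM from X-linked genes was 1.02%, 0.799% and 1.04% in WT and 1.37%, 1.31% and 1.12% in KO, without overlap (exact two-sided permutation p = 0.1, the smallest possible). The X median stayed between 0.40 and 0.56 in the fits without 1 library, was 0.47 with total count scaling and 0.29 with the marker covariates. The count of rises was 47 and 45 without WT MII replicates 2 and 3, 17 and 9 without KO MII replicates 1 and 2, 50 without WT RS replicate 1, 53 without KO RS replicate 2, 32 with only the MII libraries and 0 with the covariates. Round spermatid markers were higher in KO as well, and their part in the X-linked rise was not tested. Of 281 Y-linked genes 5 rose, a share of 1.78%, and 0 fell, with 1 lower at an unadjusted p under 0.05, 1 by DESeq2 and 0 by limma-voom. The count of Y-linked rises lay between 0 and 5 without 1 library, with 0 once replicate 2 of WT MII or replicate 1 or 2 of KO MII was dropped.

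**Figure D3:**
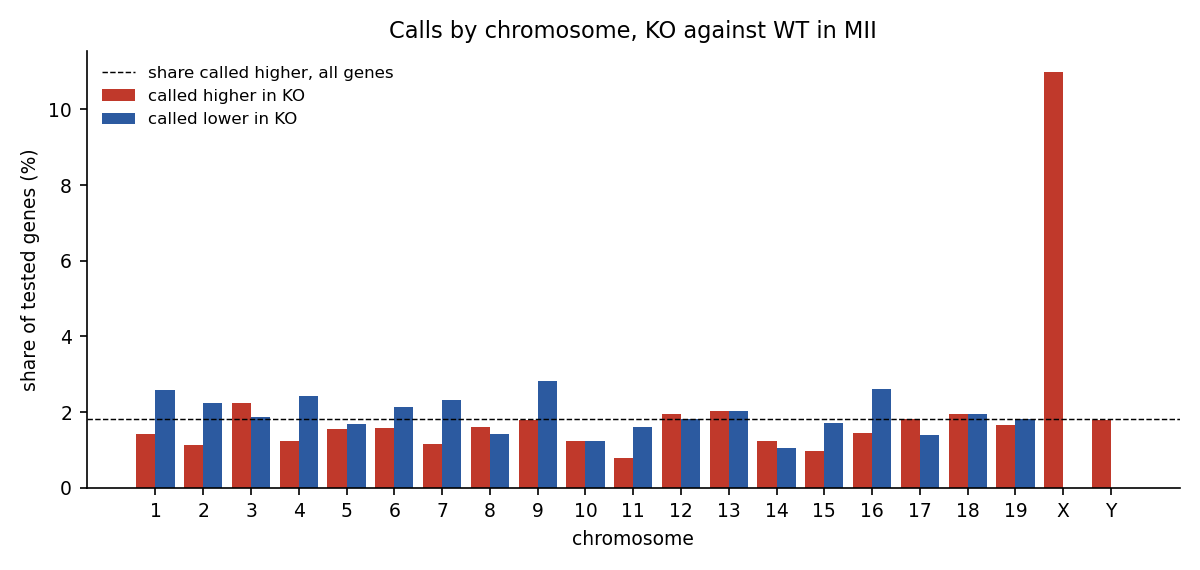
Share of tested genes (%) called higher (red) or lower (blue) in KO MII libraries for each chromosome, with a dashed line at 1.83%, the share of all genes called higher. The X bar is at 11% higher and 0 lower, and the autosomes lie between 0.776% and 2.25% higher.

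The X-linked rises ranged from 0.55 to 6.85 on the log2 scale, with a median of 0.83, so that most were below 2-fold. Gm381, a predicted X-linked gene, was at 18.7, 13.8 and 14.9 CPM in WT and at 40.1, 44.0 and 32.4 CPM in KO, log2 fold change 1.30 (SE 0.199, edgeR adjusted p = 0.00153). Taf7l, a germ cell form of a general transcription factor subunit, was at 26.6, 22.1 and 25.2 CPM in WT and at 47.6, 43.5 and 37.4 CPM in KO, log2 fold change 0.80 (SE 0.156, adjusted p = 0.00844). Both had every KO library above every WT library. Taf7l was not called without KO MII replicate 1 (adjusted p = 0.0571), while Gm381 kept its call in all 12 fits. Cypt2, a cysteine-rich testis gene with near-identical copies, was at 126, 89.8 and 130 CPM in WT and at 221, 198 and 163 CPM in KO, log2 fold change 0.75 (adjusted p = 0.0227). On the Y, Eif2s3y, a translation initiation factor subunit, rose by 0.77 (adjusted p = 0.023) and Zfy2, a zinc finger gene, by 0.73 (adjusted p = 0.0444). Cypt2, Eif2s3y and Zfy2 lost their calls in 3, 3 and 10 of those fits (highest adjusted p = 0.118, 0.128 and 0.196). They also lost them with the 6 MII libraries alone (adjusted p = 0.0501, 0.0718 and 0.09). Of 34 tested multicopy and related genes of the sex chromosomes 5 rose, against 1.83% of all genes, and 0 fell (edgeR, DESeq2 and limma-voom, and 0 lower at an unadjusted p under 0.05), and 31 had a positive log2 fold change.

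Noncoding genes leaned the other way in MII. Of 3716 genes annotated as long noncoding, 122 fell (3.28%, against 1.86% of all genes) and 30 rose (0.807%), with a median log2 fold change of -0.17. In round spermatids, with all libraries in the fit, 237 of them were called higher and 159 lower, with a median of 0.04. Of 14728 protein-coding genes 241 fell (1.64%) and 320 rose (2.17%), with a median of 0.03. Falls of long noncoding genes outnumbered their rises in each fit that left out 1 library, with 22 to 221 falls and 3 to 40 rises. The falls were 25 without WT MII replicate 3, 54 without KO MII replicate 1, 22 without KO MII replicate 2, 49 without KO MII replicate 3, 77 without WT RS replicate 1 and 221 without WT MII replicate 2. The share of CPM from these genes was 5.07%, 4.36% and 5.61% in WT and 4.59%, 4.5% and 4.37% in KO, and overlapped (exact two-sided permutation p = 0.4). Many overlap other genes or lie antisense to them, and the labels do not give the strand setting of the counting, so such counts are uncertain.

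Protein-coding genes that rose and fell differed in length and base composition. The median coding length was 1558.5 bases for genes that rose, 981 for genes that fell and 1359 for all protein-coding genes tested. The median GC content of the transcript was 46.8%, 52.2% and 49.8% for the same groups. Of all protein-coding genes tested 1.64% fell and 2.17% rose. In the quartile with the shortest coding regions, up to 822 bases, 106 genes fell (2.87%) and 35 rose (0.947%). In the third quartile, up to 2206 bases, 35 fell (0.952%) and 107 rose (2.91%). In the quartile with the lowest GC, up to 44.96%, 120 rose (3.26%) and 26 fell (0.706%). In the highest quartile, from 54.53%, 25 rose (0.679%) and 77 fell (2.09%). Across the 14728 genes Spearman's rho of the log2 fold change was -0.17 with GC, 0.12 with coding length and 0.01 with the length of the 3′ UTR, given as a description, since all genes share the same 6 libraries. In the lowest GC quartile the order of rises and falls turned without WT MII replicate 2 (50 rose, 68 fell) and replicate 2 of KO MII (5 and 9), and the counts were equal without replicate 1 of KO MII (16 and 16). In the longest quartile by coding length, where 91 rose and 39 fell, it turned without replicate 1 of KO MII (10 and 23), without its replicate 2 (8 and 13) and with only the MII libraries (19 and 26). In round spermatids, with all libraries in the fit, 176 genes of this quartile were called higher and 330 lower. Of all 14728 protein-coding genes 914 were called higher there and 1328 lower. There the shortest quartile had 249 higher and 326 lower, the lowest GC quartile 380 and 138, and the highest GC quartile 92 and 562. The mean GC of protein-coding transcripts weighted by CPM was 48.6%, 49.2% and 48.6% in WT and 48.7%, 48.4% and 48.9% in KO, which overlapped (exact two-sided permutation p = 0.7).

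**Figure D4:**
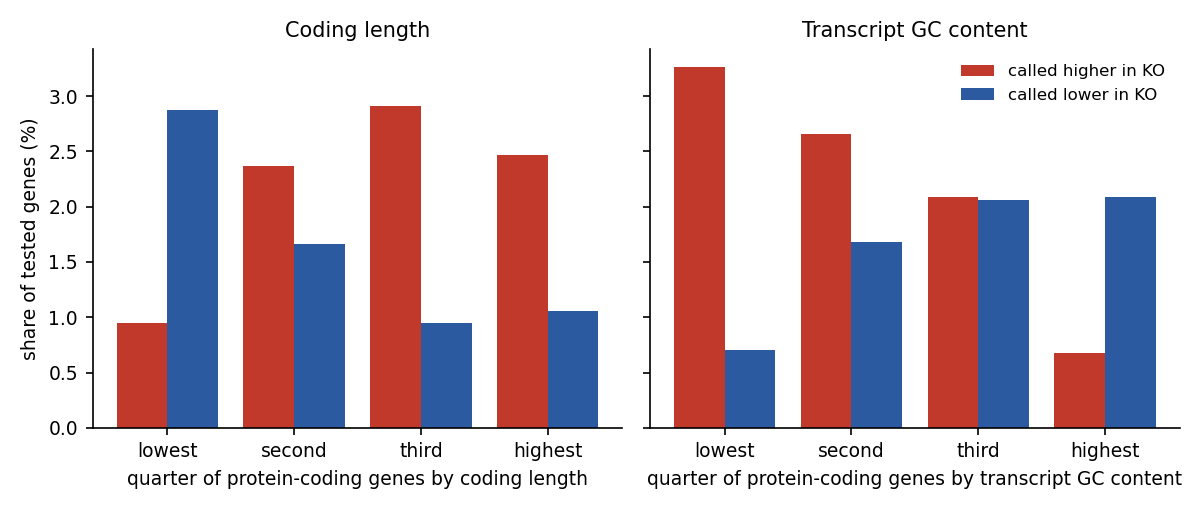
Share of protein-coding genes (%) called higher (red) or lower (blue) in KO MII libraries, in quartiles of 3675 to 3695 genes by coding length (left) and by GC content of the transcript (right). Falls were 2.87% of the shortest quartile and rises 3.26% of the quartile with the lowest GC.

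The same genotypes were compared in round spermatids by their own 6 libraries in the same fit, where 2863 genes (13.4%) were called. The library labelled KO RS replicate 1, whose Pan2 level goes against its label, is 1 of these 6 libraries. Without it 1080 genes (4.95%) were called, and further values without it follow. Of the 784 genes called in MII, 539 were also called in round spermatids, 262 higher and 277 lower at both stages and 0 in opposite directions. These are 68.75% of the MII calls and 18.83% of the round spermatid calls. Without that library in the round spermatid comparison 361 were shared, all in the same direction. These are 46.05% of the 784 MII calls of the fit of all libraries. They are 33.43% of the 1080 round spermatid calls of the fit without it. Of the 87 X-linked rises 64 were called higher there too, or 39 without that library. Prm1 and Esyt3 had log2 fold changes of -2.68 and -3.24 in round spermatids beside -1.81 and -1.93 in MII, and 3110070M22Rik had -7.65 beside -7.59. Without that library the round spermatid values of Prm1, Esyt3 and 3110070M22Rik were -2.81, -3.76 and -7.83. Msmo1 had 0.36 (adjusted p = 0.45; 0.41 without that library) beside 1.87, and Star 0.32 (adjusted p = 0.698) beside 1.74, turning to -0.34 (adjusted p = 0.755) without that library. A test of the difference between stages called 1 gene (0.0047% of those tested), Acta2, with 1405 genes at an unadjusted p under 0.05. Acta2 was not called for the difference once replicate 1 of WT MII, replicate 2 or 3 of KO MII, any of the WT RS libraries or replicate 2 of KO RS was left out (highest adjusted p = 0.215). No difference was therefore called for Prm1, Esyt3, Msmo1 or Star (adjusted p = 0.735 for Prm1).

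**Figure D5:**
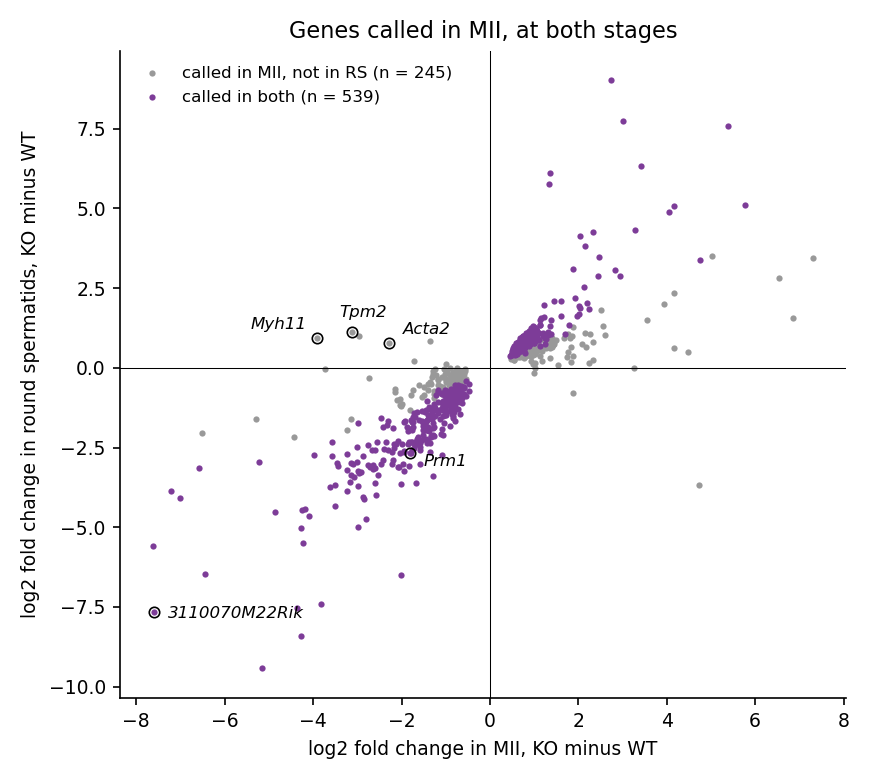
Log2 fold changes of KO against WT for the 784 genes called in MII, in MII (x axis) and in round spermatids (y axis). The 539 purple genes were called at both stages, all in the same direction (361 once the library labelled KO RS replicate 1 is left out), and Acta2, at -2.28 and 0.76, is the 1 gene whose difference between stages was called in the fit of all libraries.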

How the data were processed

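RNA of 6 MII and 6 round spermatid samples was measured, 3 per genotype and stage. The authors deposited raw counts of reads per gene. Per the submitters' processing notes, Trim Galore 0.6.7, STAR 2.7.10a, featureCounts 2.0.2, DESeq2 and the mm10 build were used. For strand, annotation release and multi-mapping reads, the settings were not given in the sources used here. Total counts in the MII libraries ran from 13781370 to 38652066, which limits precision most for genes of a few counts.

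From these counts, genes passing edgeR's filterByExpr (minimum count 10, minimum total 15) were scaled by TMM and fitted over all 12 libraries and 4 groups (8 residual degrees of freedom), with robust quasi-likelihood tests and Benjamini-Hochberg adjustment over 21291 genes (edgeR 4.0.16, limma 3.58.1, R 4.3.3). The fit was also run on simulated counts with known changes, whose results are not given here. Exact two-sided permutation tests were used for single values per library. Alternatives were other scalings, filters, tools (DESeq2 1.42.0, limma-voom), a replicate block, marker covariates, a fold minimum and leaving out each library. Marker covariates and the counts by gene class under alternatives used lists and classes described in the text.

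Named genes were the 14 largest rises and falls and 4 clone or predicted symbols each way. All of these were called, with a mean of at least 5 CPM and no overlap between groups. Further ones were 8 abundant called genes each way and up to 3 called members per list. Genes outside this rule (such as Tnp1, Prm3, Pan3, Sqle, Actg2 and the low kallikreins) were chosen after their values were seen. The members and lists were chosen with earlier results of these data known. Leaving out the round spermatid libraries, the class counts and the alternatives for Tnp1, Klk1, Klk1b5 and the Acta2 difference were added after seeing the data. Promoter sequences came from RefSeq (GRCm38.p6).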

Additional observations from a re-analysis of the deposited data

Results flagged for a closer look

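The effect of the genotype on Acta2 differed between stages in the fit of all 12 libraries, by a test of the difference itself, but not in all alternatives. Its log2 fold change of KO against WT was -2.28 in MII and 0.76 in round spermatids, a difference of 3.04 (edgeR adjusted p = 0.0269). The call was lost in 7 of the 12 fits that left out 1 library (highest adjusted p = 0.215), with limma-voom (0.0645) and with the 5 CPM filter (0.0923), while the difference stayed positive in each of them. Acta2 was at a mean of 32.8 CPM in WT and 6.77 CPM in KO at MII (n = 3 each), and at 3.09 and 5.25 CPM in round spermatids. Markers of peritubular myoid, endothelial and stromal cells, Acta2 among them, summed to between 54.1 and 169 CPM in MII libraries and to between 16.4 and 31.1 CPM in round spermatid libraries, and their part in the difference was not tested.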

How the results depend on the processing

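The count of 784 calls (389 higher, 395 lower; X-linked 87 higher, 0 lower) was 1440 (825, 615; 175, 3) with no filter, 403 (169, 234; 32, 1) with only the 6 MII libraries, 41 (0, 41; 0, 0) with marker covariates, 375 (126, 249; 30, 0) with a fold of at least 2 and 1519 (788, 731; 146, 2) with DESeq2. Without 1 library it ranged from 147 to 976 (45 to 496 higher, 102 to 597 lower), with 9 to 101 X-linked rises and 0 to 1 falls. Total count scaling gave 333 higher and 472 lower. The difference between stages was called for 65 genes with no filter, 0 with the 5 CPM filter, 3 with the replicate block, 4 with covariates, 19 with DESeq2, 0 with limma-voom and 0 to 2 without 1 library. Pan2 passed the test at -1.30 with the MII libraries alone, -3.09 with covariates and -1.28 with the library labelled KO RS replicate 1 left out, and ranged from -1.44 to -1.14. With covariates the direction reversed for Lcn2 (-0.19), Cyp11a1 (-1.32) and Ephx1 (-0.12). For Cyp11a1, a member of the Leydig score, the gene was adjusted in part for itself. The cause was not tested. Replicate numbers did not pair the libraries (correlations of deviations 0.0445, -0.0328 and -0.143), and the replicate block gave 744 calls (383 higher, 361 lower; 72 X-linked). The median of all genes stayed between -0.034 and 0.014. Depth limits most the genes with few counts, where a single library can decide a call.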

Other observations

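A few energy and transport genes of the germ line rose as well. Of 26 tested isozymes of testis glycolysis and energy supply 2 rose, against 1.83% of all genes, and 0 fell (edgeR, with 3 lower at an unadjusted p under 0.05, 1 lower by DESeq2 and 1 by limma-voom), and the median log2 fold change was 0.10. Aldoart2, an aldolase retrogene of the testis, was at 270, 272 and 173 CPM in WT and at 396, 367 and 382 CPM in KO, log2 fold change 0.68 (SE 0.158, edgeR adjusted p = 0.0232). Aldoart1, a second such retrogene, was at 103, 88.1 and 71.1 CPM in WT and at 125, 133 and 133 CPM in KO, log2 fold change 0.58 (SE 0.148, adjusted p = 0.0354). In both genes the groups did not overlap, but neither was called with the 6 MII libraries alone (adjusted p = 0.0746 and 0.105). The calls were also lost in 4 and 7 of the 12 fits that left out 1 library (highest adjusted p = 0.102 and 0.122). Kcnu1, a potassium channel of the sperm tail, was at 93.6, 84.4 and 73.9 CPM in WT and at 122, 135 and 113 CPM in KO, log2 fold change 0.56 (SE 0.134, adjusted p = 0.0274), a call lost in 5 of those fits (highest adjusted p = 0.127) and with the 6 MII libraries alone (0.103). Of 27 tested membrane transport genes 4 rose, against 1.83% of all genes. Kcnu1 was among them, beside the larger rises of Slco5a1 (1.61) and Kcnab1 (1.38) given above.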
